A study of Rattus norvegicus with 6 samples.

Results

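The colony stimulating factors are secreted proteins that control the making, survival and activation of myeloid blood cells. They were examined here in rat myocardium as a family of 7 genes: the ligands Csf1, Csf2 and Csf3 and the receptor genes Csf1r, Csf2ra, Csf2rb and Csf3r. The genes were chosen by name, and a probe was counted for a gene when its RefSeq accession belonged to that gene. Of the 7 genes, 5 had a probe, 1 each, among 13870 named genes with a probe in all; no probe was matched to Csf2 or Csf2ra, which were not analysed here. All 5 passed the filter on dim probes, together with 10995 named genes in all. Csf2rb and Csf3r did so through the border zone alone: of the 3 sham arrays, 2 had Csf2rb well above background and 1 had Csf3r, so these genes could enter the test only if bright in the border zone.

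RNA came from the heart muscle of 6 male Wistar rats whose age the labels do not give. Ligation of the left anterior descending coronary artery produced an infarct in 3 of them, and 6 h later tissue from the border zone of the infarct, found with a TTC&EB double stain, was taken (arrays M17, M24 and M25). The 3 others had a sham operation and gave tissue from a control zone at the same time (arrays C4, C5 and C6). Total RNA was labelled with Cy3 and hybridised to 1-colour Agilent arrays, 1 per rat; nothing more in the labels says that the samples were prepared apart, so p-values measure only the spread between these arrays. The tissue is a mixture of heart muscle, vessels, connective tissue and blood-borne cells, so in every result more cells of a type and more RNA per cell cannot be told apart.

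M-CSF, the product of Csf1, acts through the receptor tyrosine kinase CSF1R and keeps monocytes and macrophages alive, including those resident in the heart. G-CSF, the product of Csf3, acts through the receptor encoded by Csf3r and releases neutrophils from the bone marrow. GM-CSF, the product of Csf2, binds an alpha chain (Csf2ra) that signals only with the beta chain Csf2rb, which IL-3 and IL-5 receptors also use. CSF3R and the beta chain carry no kinase of their own and signal through JAK2 and STAT proteins, whose targets Socs3 and Cish encode inhibitors of the same receptors. After coronary ligation, neutrophils and then monocytes enter the injured muscle.

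Several arrays stood apart. The arrays were scanned in 3 runs: the border zone arrays and C4 shared 1 scan, and C5 and C6 had 1 each. Between 73.7% and 78.3% of probes were well above background in the shared scan, against 51.0% on C5 and 52.4% on C6; no probe was saturated. A total of 572 probes differed by over 2-fold from M17 to M24, and in 97.6% of them the value of M25 was intermediate, as it was for all 5 colony stimulating factor genes. Whether M25 is a separate animal is therefore in doubt, and results for the family and its pathway are also given without it. Of 10 markers of central nervous tissue, 9 were measured, and their summed signal, in units of each array's 75th percentile, was 10.7 on C5 and 14.0 on C6, against 1.76 on C4 and 1.14 to 1.48 in the border zone. Only Syt1 among them was not well above background on any array. All 9 measured cardiomyocyte markers, which define heart muscle, were well above background on every array.

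Levels below are the log2 signal of a probe minus the 75th percentile of its array, so 0 is the brightness at that percentile, and levels of different probes cannot be set against each other. A fold change is the border zone mean minus the sham mean on that scale, with the standard error of a limma fit over all 17930 tested probes, and a gene is said to rise or fall only at an adjusted p below 0.05. Because only C4 shared a scan with the border zone, changes of the family are also given against C4 alone, from a fit with scan as a block, as are those of other genes where stated. That fit has no sham spread. An "at least" fold is the fold after dim sham signals are raised to the lowest signal well above background on their array. It covers that effect alone, so the value against C4, the interval or another processing can give a smaller fold.

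Of the 5 genes measured, 4 rose (Csf1, Csf3, Csf2rb and Csf3r) and 1, Csf1r, did not pass. Of all tested probes 19.3% passed; 9.01% of all tested probes rose and 10.3% fell. Higher on all 3 border zone arrays than on every sham array were the same 4 genes, which held for 20.9% of all probes. With scan as a block, Csf1 and Csf3r rose and Csf1r fell, beside 8.43% of all probes that rose and 7.5% that fell in that fit. Leaving out an array changed the share of all probes that passed, to 8.03% when M17 was left out, 6.51% for M24, 2.84% for M25, 40.8% for C4, 7.84% for C5 and 13.2% for C6. Counts without an array are to be read against these shares.

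**Figure D1:**
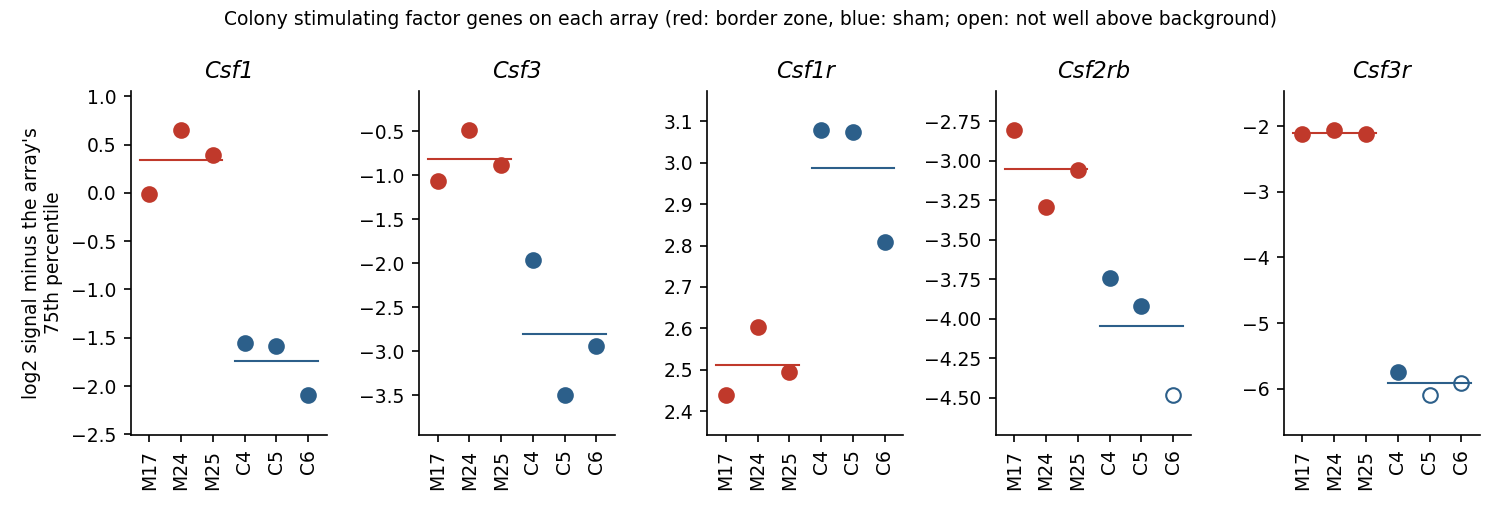
Level of each measured gene on every array, as log2 signal minus the array's 75th percentile (vertical axis, a separate scale for each gene); points are arrays, red for border zone and blue for sham, lines are group means, and open points were not well above background. Border zone and sham points do not overlap in any panel, with the widest gap, 3.62, in Csf3r and the narrowest, 0.20, in Csf1r. Of all tested probes, 20.9% were higher on all 3 border zone arrays than on every sham array, and the share lower on all 3 was not counted.

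The ligand Csf1, which encodes M-CSF, was at -0.012, 0.65 and 0.40 on M17, M24 and M25. It was at -1.55, -1.58 and -2.10 on C4, C5 and C6. All border zone arrays were thus above all sham arrays, and M17 was the lowest of the border zone. Csf1 rose 4.25-fold (95% interval 2.85 to 6.34, log2 fold change 2.09 ± 0.24, SE, n = 3 arrays per group, adjusted p = 0.00499), and it was 3.72-fold higher than on C4 (1.90 ± 0.29, adjusted p = 0.0324). Without M25 the change was 2.06 (adjusted p = 0.0427). Before scaling, its signal was 784 to 1333 units in the border zone and 73.4 to 248 in sham, well above background on all 6 arrays.

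The ligand Csf3, which encodes G-CSF, was at -1.07, -0.49 and -0.89 on M17, M24 and M25. Sham arrays were spread more widely, at -1.97 on C4, -3.50 on C5 and -2.94 on C6. C4, the sham array of the shared scan, lay 0.90 below the lowest border zone array and nearer to it than to C5. Csf3 rose 3.96-fold (95% interval 1.99 to 7.88, log2 fold change 1.99 ± 0.40, n = 3 arrays per group, adjusted p = 0.0251). Against C4 alone the difference was 2.22-fold and did not pass (1.15 ± 0.26, adjusted p = 0.0605). The call also ended on leaving out M17 (adjusted p = 0.0685), M24 (0.0933), M25 (0.105), C5 (0.0582) or C6 (0.0649), while the fold change stayed between 1.64 and 2.40 over all arrays left out in turn.

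The receptor gene Csf3r, found mainly in neutrophils and their precursors, had the largest log2 fold change of the 5 genes in the reported setting; with normexp it was below Csf1 (1.82) and Csf3 (1.22). Its level was -2.12, -2.06 and -2.11 on M17, M24 and M25, a range of 0.062, and -5.74, -6.10 and -5.91 on C4, C5 and C6. Only C4 of the sham arrays was well above background, with a signal of 13.6 units, against 181 to 203 units in the border zone. Csf3r was 14.1-fold higher in the border zone (log2 fold change 3.82 ± 0.13, n = 3 arrays per group, adjusted p = 0.00041). With C5 and C6 raised to the lowest signal that counted as well above background on each, it was 6.23-fold higher. Against C4, where it was measured, it was 12.5-fold higher (3.64 ± 0.09). Without M25 the change was 3.82 (adjusted p = 0.0119). The normexp background correction with an offset of 50 units gave 1.02 (adjusted p = 0.0734), and without the offset it gave 2.31 (adjusted p = 0.0319).

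The shared beta chain Csf2rb was at -2.81, -3.29 and -3.06 on M17, M24 and M25. It was at -3.74, -3.92 and -4.48 on C4, C5 and C6, the last not well above background. The groups did not overlap, but M24 and C4 were only 0.45 apart. Csf2rb rose 1.99-fold (95% interval 1.33 to 2.98, log2 fold change 0.99 ± 0.24, n = 3 arrays per group, adjusted p = 0.0374), or 1.78-fold with C6 raised as above. Against C4 alone it was 1.61-fold higher and did not pass (0.69 ± 0.22, adjusted p = 0.110). It did not pass with normexp either (0.025, and 0.43 without the offset) or after leaving out M17 (adjusted p = 0.115), M24 (0.0816), M25 (0.142), C5 (0.0883) or C6 (0.0545). Unlike Csf1 and Csf3, whose highest border zone level was on M24, Csf2rb was highest on M17 and lowest on M24.

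The receptor gene Csf1r, a marker of monocytes and macrophages, was at 2.44 on M17, 2.60 on M24 and 2.49 on M25. Its sham levels were 3.08 on C4, 3.08 on C5 and 2.81 on C6. All sham arrays were above all border zone arrays, by as little as 0.20 between C6 and M24. The difference was 1.39-fold (95% interval of the fold 1.12 to 1.73, log2 fold change -0.48 ± 0.13, n = 3 arrays per group) and did not pass (adjusted p = 0.0510). It passed as lower in 8 of 16 alternatives, against C4 alone among them (-0.57 ± 0.11, adjusted p = 0.0498), and on leaving out C4 (adjusted p = 0.0481) or C6 (0.0399), but not without M25 (-0.47, adjusted p = 0.208). Over all 16 it ranged from -0.57 to -0.29. The median of all probes was -0.027 here, 0.16 with median scaling and -0.34 with normexp. Relative to that median Csf1r was at -0.45 here and with median scaling, and at 0.0080 with normexp.

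**Figure D2:**
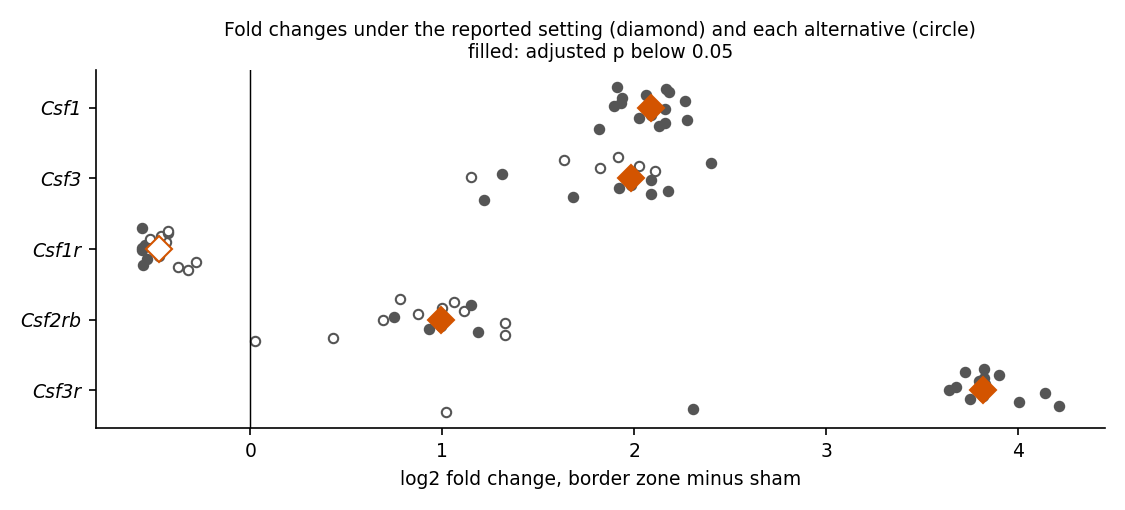
Log2 fold change of border zone over sham (horizontal axis) for each measured gene under the reported setting (diamonds) and each alternative in processing or arrays used (circles), filled where the adjusted p was below 0.05. Csf1 stayed filled in all 16 alternatives and between 1.82 and 2.28, while Csf2rb was filled in 4 of 15.

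In the M-CSF pair the ligand gene Csf1 was higher on all 3 border zone arrays and the receptor gene Csf1r was lower. In the G-CSF pair both Csf3 and Csf3r rose. The other ligand of CSF1R, Il34, was near background, at -5.54, -5.39 and -5.33 in the border zone and -4.68, -4.11 and -5.85 on C4, C5 and C6, where only C4 was well above background. It did not pass (-0.54 ± 0.43, adjusted p = 0.407), but was lower against C4 (-0.74, adjusted p = 0.0381).

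Markers of the cells that carry these receptors were summed per array on the linear scale, in units of the array's 75th percentile. Such a sum is weighted to the brightest probes of a list. Of 14 measured neutrophil markers, whose cells carry Csf3r, 11 were tested and 9 rose, but only 2 of the 11 were well above background on all 3 sham arrays. The others entered the test through the border zone, where they are bright, so the count is no measure of the list. The sum was 5.95 to 7.02 in the border zone, where S100a8 was its largest part, and 0.514 to 0.764 in sham. The genes that rose included the calgranulin S100a8 (log2 fold change 5.21 ± 0.43, 6.11 against C4), the cathelicidin Camp (2.99 ± 0.38, at least 6.54-fold), Pglyrp1 (3.15 ± 0.22, at least 3.76-fold) and the collagenase Mmp8 (2.97 ± 0.70, at least 2.35-fold). In the lowest alternative of each, the log2 fold change was 4.09 for S100a8, 1.03 for Camp, 0.42 for Pglyrp1 and 0.13 for Mmp8. Prtn3, a granule protease, was not well above background on any array. The scan block gave 9 rises and the omission of M25 gave 3. The part of these cells in the rise of Csf3r was not tested.

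Of 8 measured monocyte markers, 6 rose, beside 9.01% of all tested probes, and 2 did not pass. These 2, named after their values were seen, were Ccr2 (0.26 ± 0.29, adjusted p = 0.550) and Cd68 (0.46 ± 0.13, adjusted p = 0.0641). The groups overlapped for Ccr2. The sum of the 8 markers was 58.2 to 63.0 in the border zone and 16.7 to 23.8 in sham. The brightest, Lyz2 (1.70 ± 0.18, named after its values were seen), made up most of the sum on every array. Others that rose were the chemokine receptor Ccr1 (2.80 ± 0.17), the lectin Clec4e (3.50 ± 0.68, at least 7.48-fold, but 1.19 with normexp), the endotoxin co-receptor Cd14 (2.07 ± 0.17) and Plac8 (1.75 ± 0.23). The scan block gave 5 rises and the omission of M25 gave 3. Resident macrophage markers, whose cells carry Csf1r, went both ways: of 12 tested, 4 rose, 3 fell and 5 did not pass. Of all tested probes, 9.01% rose and 10.3% fell. The sum of the measured resident macrophage markers was 51.5 to 60.5 in the border zone and 48.6 to 53.5 in sham. Its largest parts on every array were Gas6 (-0.12 ± 0.13) and C1qa (-0.0045 ± 0.16). Neither passed, and both were named after their values were seen. The scavenger receptor Cd163 was not well above background on any array. The mannose receptor Mrc1 (0.94 ± 0.10) and Lyve1 (1.12 ± 0.24) rose, as did the complement genes C1qb (0.82 ± 0.13) and C1qc (0.75 ± 0.14). Trem2 (-1.33 ± 0.17), Cx3cr1 (-1.34 ± 0.28, with only C4 of the sham arrays well above background) and Adgre1 (-0.77 ± 0.19) fell; C1qb, C1qc and Adgre1 were named after their values were seen. With scan as a block 1 rose and 2 fell: the calls of Lyve1 (adjusted p = 0.0514), C1qb (0.0648), C1qc (0.0909) and Cx3cr1 (0.105) ended. Without M25, 1 rose and none of these 3 fell by limma's adjusted p. The part of these cells in the level of Csf1r was not tested.

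Markers of other cell types the tissue could hold were examined in the same way. None of the 9 cardiomyocyte markers passed in limma, and 0 had an unadjusted p below 0.05, with sums of 565 to 658 in the border zone and 621 to 801 in sham. Of 4 endothelial markers, 1 fell, Emcn (-0.95 ± 0.18), and sums were 10.4 to 13.2 in the border zone and 14.9 or more in sham. Of 5 fibroblast markers, Tcf21 rose (1.84 ± 0.13) and Col1a2 fell (-1.02 ± 0.21), with sums of 57.7 to 61.0 against 54.9 to 71.2. Of 9 tested lymphocyte and mast cell markers, the natural killer cell receptor Klrd1 rose (0.54 ± 0.14), and the mast cell genes Fcer1a (-1.41 ± 0.36) and Cpa3 (-1.28 ± 0.29) fell, with sums of 3.73 to 5.10 against 3.96 to 4.44. Of 4 tested markers of central nervous tissue, 1 fell and 3 did not pass. Gfap, 1 of those that did not pass, was at -0.65 ± 1.56 in the reported fit but at 3.06 against C4. It was named after its values were seen. Beside the counts of these lists, 9.01% of all tested probes rose and 10.3% fell. In this paragraph the call of Tcf21 held with scan as a block and without M25, and each other call ended in both. With scan as a block the adjusted p was 0.115 for Emcn, 0.0552 for Col1a2, 0.0596 for Klrd1, 0.0800 for Fcer1a and 0.0803 for Cpa3; without M25 it was 0.107, 0.120, 0.175, 0.121 and 0.120.

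**Figure D3:**
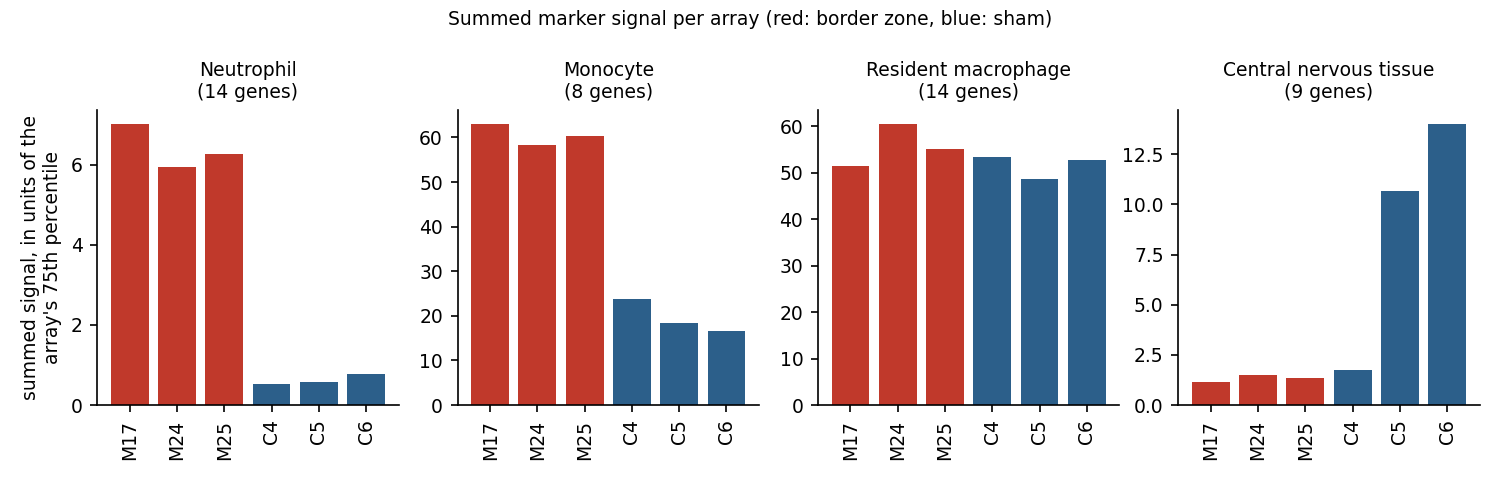
Summed linear signal of the measured markers of 4 cell or tissue types on each array, in units of the array's 75th percentile (vertical axes, each from 0), red for border zone and blue for sham. Neutrophil markers reached 5.95 to 7.02 in the border zone and at most 0.764 in sham, and the ranges of resident macrophage markers overlapped. The sum of central nervous tissue markers was high on C5 and C6 only.

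Among 23 tested genes of receptor signalling, 7 rose, beside 9.01% of all tested probes, and 16 did not pass, with a median log2 fold change of 0.39. Of the 23, 16 were well above background on all 3 sham arrays, and the others entered the test through the border zone. Jak2, the kinase that binds the beta chain and CSF3R, was at 0.75, 0.38 and 0.55 in the border zone and -1.33, -1.22 and -1.49 in sham, and rose 3.75-fold (1.91 ± 0.14, 1.89 against C4, adjusted p = 0.00188). Cish, a STAT5-induced inhibitor of cytokine receptors, was at 1.79, 1.86 and 1.81 in the border zone and 0.64, 0.14 and 0.23 in sham, and rose 2.80-fold (1.49 ± 0.16, 1.18 against C4, adjusted p = 0.00452). The border zone values lay close together, and C4 was the highest of the sham arrays. Socs3, which binds and blocks CSF3R, rose (2.57 ± 0.45, adjusted p = 0.0163, 1.59 against C4, 0.61 with normexp), or 3.51-fold with its dim sham arrays raised as above. Its probe was well above background on 1 of 3 sham arrays. Stat3 (1.33 ± 0.17), the adaptor Tyrobp (0.80 ± 0.14) and the phosphatase Ptpn6 (0.59 ± 0.11), named after their values were seen, also rose. Stat5a (-0.21 ± 0.13) and Stat5b (1.14 ± 0.49, but -0.035 against C4, and 1.73 with adjusted p = 0.000776 without C4) did not pass, so Jak2 and Stat3 passed where the STAT5 genes did not; the difference between them was not tested. With M25 left out, 3 of the 23 rose, and the call of Socs3 ended on leaving out any 1 border zone array.

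The promoters of Cish and Csf3r were chosen with the results known and are shown because the first is a classical STAT5 target whose transcript rose, and the second belongs to the gene of this family with the largest change in the reported setting. Each is the 250 bases before the start of transcription, read from RefSeq on the GRCr8 assembly; promoter entries were found for 4 of the 7 family genes. In Cish, capitals mark the letters TTCNNNGAA, the palindrome that STAT proteins bind. In Csf3r, capitals mark GAGGAAG, a form of the site of PU.1 (the product of Spi1), and TTNNGNAAG, TTNNGNAAT, TGNNGNAAG or TGNNGNAAT, forms of the C/EBP site; both strands were searched, and the matches do not overlap. PU.1 and C/EBP proteins are known regulators of the human counterpart of Csf3r.
Cish, chr8:116850719-116850968, plus strand: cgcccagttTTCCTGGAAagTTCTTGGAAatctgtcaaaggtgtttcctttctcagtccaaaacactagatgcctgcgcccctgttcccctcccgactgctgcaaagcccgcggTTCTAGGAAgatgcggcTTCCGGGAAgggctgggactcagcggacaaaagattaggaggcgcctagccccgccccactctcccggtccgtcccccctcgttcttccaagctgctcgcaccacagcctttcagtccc
Csf3r, chr5:143582970-143583219, plus strand: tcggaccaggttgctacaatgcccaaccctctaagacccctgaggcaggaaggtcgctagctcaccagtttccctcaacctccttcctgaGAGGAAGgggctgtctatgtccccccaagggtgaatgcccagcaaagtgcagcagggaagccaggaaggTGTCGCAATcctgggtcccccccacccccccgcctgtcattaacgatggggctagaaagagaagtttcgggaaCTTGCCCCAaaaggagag

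The Cish window held 4 matches to the STAT letters, which begin 241, 230, 136 and 119 bases before the start. Among 33469 promoter windows of the same length, 7.67% held at least 1 match and 2 windows (0.00598%) at least 4. The window of Socs3 held 0, and that of Socs1, which did not pass (0.10 ± 0.27), held 1. The Csf3r window held 1 PU.1 form, and 10.2% of windows held at least as many; it held 2 C/EBP forms, and 11.3% held at least as many. The Csf3r matches begin 160 bases (PU.1) and 91 and 18 bases (C/EBP, the last on the minus strand) before the start. A match to such letters is a description of the sequence and not a shown binding site.

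Among 13 tested transcription factors of myeloid cells, 6 rose, beside 9.01% of all tested probes, and 7 did not pass. The median log2 fold change of the 13 was 0.67. Of the 13, 7 were well above background on every sham array. The others, Cebpa and Spi1 among them, entered the test through the border zone, so the count is no measure of the list. Runx1, which is needed for blood cell formation, rose (1.88 ± 0.18, 2.18 against C4, adjusted p = 0.00361), as did Egr2 (1.92 ± 0.22, 2.27 against C4) and Cebpb, the C/EBP factor of emergency neutrophil production (1.17 ± 0.20, 1.56 against C4). The C/EBP factor of steady neutrophil production, Cebpa, was well above background on C4 alone among sham arrays. It rose (1.67 ± 0.36, adjusted p = 0.0290), or 1.72-fold with C5 and C6 raised as above, while normexp gave -0.11. The other 2, named after their values were seen, were Ets2 (0.85 ± 0.13) and Spi1, the PU.1 gene (0.67 ± 0.14), whose call ended against C4 (0.44, adjusted p = 0.0586) and which passed in 5 of 15 alternatives. Without M25, 2 of the 13 rose; the calls of Cebpa and Cebpb ended on leaving out any border zone array, and also without C6 for Cebpa and C5 for Cebpb.

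Inducers of the ligand genes in stromal and endothelial cells formed the next list. Of 10 tested, 5 rose, beside 9.01% of all tested probes, and 5 did not pass, with a median log2 fold change of 1.88. Of the 10, 7 were well above background on all 3 sham arrays, and the others entered the test through the border zone. The cytokine Il6 (at least 139-fold, 8.16 ± 0.63) and the AP-1 subunit Fosl1 (at least 20.1-fold, 5.81 ± 0.89, 7.86 against C4) were not well above background on any sham array. With normexp the log2 fold change was 4.95 for Il6 and 2.24 for Fosl1. Il1b, a classical inducer of Csf3, was at 1.60, 2.29 and 2.02 in the border zone and -1.24, -1.58 and -1.61 in sham (3.44 ± 0.21, adjusted p = 0.00124). It was lowest on M17 and highest on M24, as were Csf1 and Csf3 but also Il6 and Tnf. M25 was intermediate for most probes that differed between those arrays, so this order sets no gene apart. The TNF receptor Tnfrsf1a (1.99 ± 0.21) and, named after its values were seen, the IL-17 receptor Il17ra (1.76 ± 0.20) rose. Tnf itself was at -2.59, -1.30 and -1.80 in the border zone and -1.27, -1.90 and -2.13 in sham; the groups overlapped and it did not pass (-0.13 ± 0.39, adjusted p = 0.830). Il17a was not well above background on any array. Without M25, 4 of the 10 rose, and the call of Fosl1 ended without M24 or M25.

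The ligand mRNAs carry AU-rich elements and are short-lived. Of 6 tested genes whose proteins regulate such mRNAs, 4 rose and 2 did not pass: Zfp36, which encodes the decay factor tristetraprolin (2.03 ± 0.26, adjusted p = 0.00683), the endonuclease Zc3h12a (1.82 ± 0.20, adjusted p = 0.00481), Zfp36l2 (1.21 ± 0.20) and Zfp36l1 (0.61 ± 0.12). The median log2 fold change of the 6 was 0.91, beside -0.027 over all tested probes, of which 9.01% rose. Without M25, 1 of the 6 rose, Zc3h12a.

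No related growth factor or receptor gene rose by limma; 1 higher gene, Il3, had an unadjusted p below 0.05 (0.0336, log2 fold change 0.58, but -0.52 in its lowest alternative) and was named after its values were seen. Of 9 measured genes, Il5, Il5ra and Epo were not well above background on any array, and of the 6 tested, 3 fell and 3 did not pass. Kitlg, the stem cell factor, was at 2.08, 2.25 and 2.15 in the border zone and 3.11, 3.02 and 2.98 in sham, and fell (-0.88 ± 0.11, -0.95 against C4, adjusted p = 0.00666). A second Kitlg probe gave -0.95 ± 0.13. Its receptor Kit, a relative of CSF1R, fell (-0.75 ± 0.18, adjusted p = 0.0374), with only C4 of the sham arrays well above background, and the call ended with normexp, quantile or median scaling. The erythropoietin receptor Epor fell 2.56-fold (-1.35 ± 0.13, adjusted p = 0.00368). The median of the 6 was -0.64, and 10.3% of all tested probes fell. Without M25, 1 of the 6 fell, Epor.

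**Figure D4:**
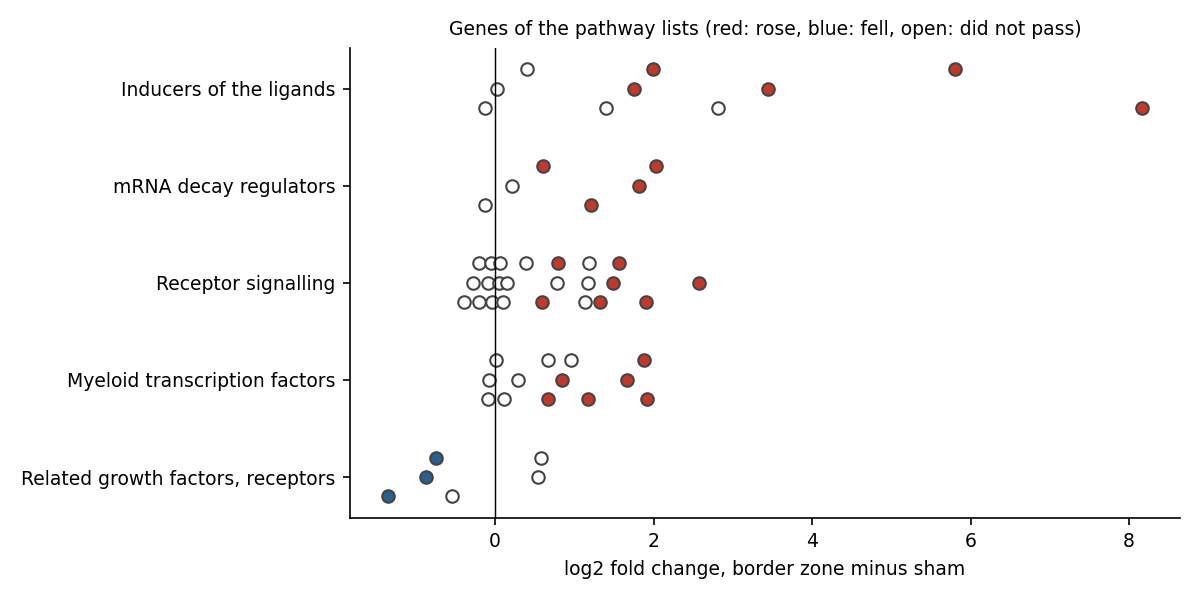
Log2 fold change of border zone over sham (horizontal axis) for the tested genes of 5 lists around the colony stimulating factors; each point is a gene, red where it rose, blue where it fell and open where it did not pass, and vertical scatter within a list has no meaning. Inducers of the ligands reach 8.16 (Il6), and only related growth factors and receptors hold genes that fell.

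Over these 5 lists, 22 of 58 tested genes rose, 3 fell and 33 did not pass, so 43.1% passed beside 19.3% of all probes. Several of the 58, Il6 and Fosl1 among them, entered the test through the border zone alone. The lists were also chosen with earlier results of these data known, so the share is no measure of the lists. With scan as a block 24 rose and 4 fell. The number of genes that passed was 15 when M17 was left out, 14 for M24, 11 for M25, 31 for C4, 20 for C5 and 25 for C6.

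The genes whose profile over the 6 arrays was most like that of a family member were found by the root mean square difference between log2 levels, each minus its own mean, among 10994 other named genes. Nearest to Csf1 were Ccn2, a matrix-associated growth factor (0.15), Lpal2 (0.15) and Pvr, an adhesion receptor (0.15). Nearest to Csf3 were Gna13 (0.18), Fam229a (0.19) and the transcription factor Klf5 (0.19), and nearest to Csf3r were Fetub (0.11), Fgl2 (0.18) and Rnd1 (0.18). Csf2rb lay nearest to Jade2 (0.084), complement C3 (0.093) and Dbh (0.098), and Csf1r to Cnep1r1 (0.027), Abracl (0.044) and the growth hormone receptor Ghr (0.046). Distances did not follow the size of the change: Csf3r, with the largest change in the reported setting, lay nearer to its closest gene than Csf1 or Csf3 did. Gna13, Fam229a, Klf5, Fetub and Jade2 were not well above background on C5 and C6, nor was Csf3r, so these levels are limited by signal over background. Over so few arrays the order is a description only.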

How the data were processed

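Per the file headers, spot signals are intensity values from Agilent Feature Extraction 11.0.1.1 (protocol GE1_1100_Jul11), background-subtracted and detrended, with no normalization between arrays. Deposited flags marked each spot as above background, saturated or outlying. The authors also deposited a table on the log2 scale (normalization not given in the sources used here), used only as an alternative; 24415 of its 24529 probes matched. Control and outlier spots were left out, and spots of a probe averaged: 24614 of 24684 probes were carried. The log2 signal minus each array's 75th percentile was fitted with limma 3.58.1 in R 4.3.3 (two-sided, Benjamini-Hochberg over all tested probes). A probe entered the fit if every array of a group, either one, had it well above background, which 17894 probes met in the border zone and 11972 in sham, so rises from dim sham signal could enter more often than falls. On a dim array, "at least" folds use the lowest signal called well above background there.

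Probes were named through RefSeq accessions in a GRCr8 gene table (14257 named); headers name rn4, so no gene coordinates are given. A gene with several probes used the brightest. The family and the lists (5 of pathway genes, 8 of markers) were chosen with earlier results of these data known. Besides the family, the text names up to 4 genes per list with the largest passing change, a few fixed neighbours, and 3 genes of nearest profile per member. The lists get no test of their own. A few list genes are counted but not reported here by name. The fit was tested on simulated data. The scanner files used here have no mean signal, so normexp used median signals. The number of arrays limits precision. Further software was Python 3.11.15, pandas 2.3.3 and matplotlib 3.10.9.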

Additional observations from a re-analysis of the deposited data

How the results depend on the processing

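Csf1 passed in all 16 alternatives, Csf3r in 14 of 15, Csf3 in 9 of 16 and Csf2rb in 4 of 15, and the direction of all 5 genes held in every alternative. Calls ended for Csf3 with no filter on dim probes (1.99, adjusted p = 0.0539) and scan as a fixed block (1.15), and for Csf2rb with normexp (0.025), normexp without an offset (0.43, an alternative chosen after seeing the data), quantile scaling (1.33), no filter (0.99), the authors' table (1.32) and scan as a fixed block (0.69); with scan as a random block Csf3 (1.31, adjusted p = 0.0242) and Csf2rb (0.75, adjusted p = 0.0432) passed. Csf3r lost its call with normexp (1.02). Csf1r passed as lower with quantile scaling (-0.56), the percentile over probes well above background on all arrays (-0.54), only probes well above background on all 6 arrays (-0.48), the authors' table (-0.56), scan as a fixed block (-0.57) and scan as a random block (-0.55). Leaving out each array in turn gave -0.57 to -0.43 for Csf1r, 0.78 to 1.15 for Csf2rb and 1.64 to 2.40 for Csf3, and 3.72 to 3.90 for Csf3r; 2 to 5 of the 5 genes passed, as did 11 to 31 pathway genes and 509 to 7308 of all probes. With normexp, 2 of the 5 passed, and without a filter also 2, with 1826 of all probes. Among the genes named by rule, those reversed were Cebpa with normexp (-0.11), Stat5b with normexp (-0.43), without its offset (-0.18) and with scan as a block (-0.035), and Tnf with median scaling (0.060) and without M17 (0.22) or C4 (0.12), its range with each array left out being -0.43 to 0.22; none of these passed in limma under that alternative. Of list genes outside that rule, Itgam (0.86) and Cxcr2 (1.64), both called as risen, reached -0.48 and -0.081 in their lowest alternative, and several that did not pass also turned. Of the probes that passed, 67.6% were higher in the border zone with median scaling and 46.7% in the reported fit. The cause of these changes was not tested. The planned use of other probes of a member was not run, since each has 1. No paired analysis was possible because the groups share no replicate numbers. The dimmest values, Csf3r on C5 and C6 and Csf2rb on C6, are limited by signal over background.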
